A study of Mus musculus with 6 samples.

Results

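The genes of antigen presentation by the major histocompatibility complex (MHC) were examined in RNA-seq of mouse bone marrow-derived macrophages (BMDMs), which are macrophages grown in culture from bone marrow. The 41 genes were chosen by symbol from the 23935 genes of the expression tables for their role in the pathway, not by a threshold on their values, although earlier results of these data were known. They hold the chains of class II and class I molecules, the proteins that load peptides onto them, the transcriptional regulators of both classes, the immunoproteasome, and the MHC-like genes Cd1d1 and Mr1.

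The study asked how loss of the M2 isoform of pyruvate kinase (PKM2), an enzyme of glycolysis, in macrophages alters their inflammatory activation. RNA of 3 PKM2ΔMAC and 3 PKM2FL/FL mice was sequenced, with 1 library per mouse. PKM2FL/FL mice carry floxed alleles for PKM2 and no Cre, and are littermates of the knockouts. PKM2ΔMAC mice carry the same floxed alleles and LysM-Cre, in which Cre is driven from the Lyz2 locus in cells of the myeloid lineage, so that all 6 mice share the floxed alleles and Cre comes only with the deletion. Bone marrow of both genotypes was cultured for 7 days with M-CSF, a growth factor of macrophages, and all 6 cultures are labelled as primed for 16 h with 10 ng/mL LPS, a bacterial cell wall component, and 25 ng/mL interferon-γ (IFN-γ). The age and sex of the mice behind these libraries are not given in the sources used here.

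MHC class I molecules consist of a heavy chain and β2-microglobulin and show peptides from the cytosol to CD8 T cells. Those peptides are cut by the proteasome, carried into the endoplasmic reticulum by the transporter TAP and loaded with the help of tapasin and chaperones. MHC class II molecules consist of an α and a β chain, are escorted by the invariant chain CD74 and show peptides from endocytosed material to CD4 T cells. IFN-γ is known to raise both classes in macrophages, class II through the coactivator CIITA and class I through its relative NLRC5. Both coactivators act on promoters that hold an X box, bound by RFX and CREB family factors, and a Y box, bound by NF-Y.

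Promoters of 32 of the 41 genes were found in a RefSeq table on GRCm38.p6 that gives 250 bases before and 50 bases after each transcript start. H2-Ab1, Cd74, Ciita, Rfxap, H2-T24, Nlrc5, Tap2, Tapbpl and Cd1d1 were not matched. The letters GCAAC or TGACG, cores of the X1 and X2 parts of the X box, were searched for on the strand of the gene at a distance of 20 to 40 bases before the letters ATTGG, the core of the Y box. This pair stood in 10 of the 32 genes (H2-Aa, H2-Eb1, H2-Eb2, H2-Oa, H2-Ob, H2-K1, H2-D1, H2-Q7, H2-M3 and B2m) and in 0.880% of the 32851 promoters of the table. The following stretches run from 120 bases before to 20 bases after the start of 3 class II genes, of the classical class I chains H2-K1 and H2-D1 and of B2m. They are shown because these genes carry the levels described next and share this arrangement, with the X1 or X2 core and the Y core in capitals.
H2-Aa: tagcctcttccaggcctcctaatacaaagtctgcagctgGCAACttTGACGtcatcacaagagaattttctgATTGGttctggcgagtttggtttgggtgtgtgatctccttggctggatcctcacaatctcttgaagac
H2-Eb1: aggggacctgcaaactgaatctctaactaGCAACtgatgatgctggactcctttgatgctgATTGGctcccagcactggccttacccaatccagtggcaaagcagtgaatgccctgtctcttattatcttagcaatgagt
H2-Ob: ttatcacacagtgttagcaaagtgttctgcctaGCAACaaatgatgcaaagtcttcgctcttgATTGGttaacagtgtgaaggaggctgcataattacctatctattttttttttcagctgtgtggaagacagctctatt
H2-K1: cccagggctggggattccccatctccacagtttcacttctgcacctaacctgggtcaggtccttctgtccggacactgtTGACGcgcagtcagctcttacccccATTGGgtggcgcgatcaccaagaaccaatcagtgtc
H2-D1: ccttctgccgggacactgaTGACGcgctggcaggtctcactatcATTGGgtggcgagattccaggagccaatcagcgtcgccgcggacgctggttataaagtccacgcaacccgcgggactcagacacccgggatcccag
B2m: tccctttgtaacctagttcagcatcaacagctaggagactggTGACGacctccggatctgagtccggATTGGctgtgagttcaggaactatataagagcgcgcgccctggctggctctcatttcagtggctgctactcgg
These stretches lie at chr17:34287804-34287943 on the minus strand for H2-Aa, at chr17:34305747-34305886 on the plus strand for H2-Eb1 and at chr17:34238785-34238924 on the plus strand for H2-Ob. Those of the class I genes lie at chr17:34000328-34000467 on the minus strand for H2-K1, at chr17:35262974-35263113 on the plus strand for H2-D1 and at chr2:122147567-122147706 on the plus strand for B2m. The X core began 25 bases before the Y core in H2-K1, H2-D1 and B2m, which have TGACG. In H2-Eb1 and H2-Ob the GCAAC core began 32 and 30 bases before it. H2-Aa had both cores side by side without overlap, the X1 core 33 and the X2 core 26 bases before the Y core. Searched alone on both strands, ATTGG stood in 25 of the 32 genes against 37.4% of all promoters, GCAAC in 15 against 35.2% and TGACG in 14 against 20.8%. A gene was counted if any of its promoters matched, and H2-K1, H2-DMa and Psme2 had alternative promoters. Shares of genes and of promoters are therefore unlike units, here and for the pair. The motifs were chosen after the sequences were seen, and a match describes letters only, not binding.

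The libraries held between 49957449 and 54524651 counts. Pkm was lower in every PKM2ΔMAC library, with 1714, 1698 and 1706 CPM in PKM2FL/FL mice 1 to 3 and 987, 1212 and 1005 CPM in PKM2ΔMAC mice 1 to 3 (CPM are counts scaled to the size of the library, here with TMM, a correction for library composition), although values per gene do not separate PKM2 from the other products of Pkm. Lyz2, the locus of the Cre, had 17006, 17746 and 18721 CPM in PKM2FL/FL and 31.8, 24.3 and 29.2 CPM in PKM2ΔMAC. The library of PKM2ΔMAC mouse 2 stood apart from the other two of its genotype, with chi-square values per degree of freedom over genes of 48.2 and 59.7 against 8.03 to 14.8 for the other pairs within a genotype, and its effect is given beside the results that rest on it.

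Genes known for their strong induction by the labelled stimuli were low in all 6 libraries. Cxcl9, a chemokine induced by IFN-γ, had at most 0.910 CPM. Nos2, the inducible nitric oxide synthase, had at most 0.490 CPM, Il6 had at most 0.328 CPM and Acod1, which makes itaconate, between 1.63 and 4.27 CPM. No unprimed library was analysed here, so the induction of the MHC genes by priming cannot be measured, and all values below are those of cultures labelled as primed. The macrophage marker Csf1r had at least 2925 CPM. Adgre1 (F4/80) had 1672, 1726 and 1666 CPM in PKM2FL/FL and 1939, 2236 and 1884 CPM in PKM2ΔMAC, without overlap (log2 fold change 0.26, SE 0.068, adjusted p = 0.236). Of the 8 macrophage markers, edgeR called 1, Itgam (CD11b), which was higher in PKM2ΔMAC (log2 fold change 0.43, SE 0.04, adjusted p = 0.00272). Of all genes tested, 0.412% were called.

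In TPM, which scale counts by gene length and library size and so allow genes to be set side by side, the 41 genes together took between 2.13% and 2.31% of a library. B2m, the light chain of class I, was the most abundant, with 7983, 7819 and 7584 TPM in PKM2FL/FL mice 1 to 3 and 8581, 7744 and 7876 TPM in PKM2ΔMAC mice 1 to 3. H2-D1 followed with a mean of 4243 TPM over the 6 libraries, Cd74 with 2547 TPM, H2-K1 with 1348 TPM and the chaperone Calr with 1307 TPM. Of the class I heavy chains, H2-D1 gave between 65.5% and 69.7% of the summed TPM in each library and H2-K1 between 20.5% and 23.4%, while the 7 other heavy chains among the members had means between 16.8 and 291 TPM. H2-T23 (Qa-1) was the most abundant of these 7.

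By mean level the abundant class II chains lay between B2m, H2-D1 and H2-K1 above and the 7 other class I heavy chains below, although H2-Aa and H2-T23 did not differ beyond their spread over libraries. Mean levels were 491 TPM for H2-Eb1, 393 TPM for H2-Ab1 and 306 TPM for H2-Aa. The regulators were lower still, with 31.3 TPM for Rfxap, 29.0 TPM for Nlrc5 and 24.9 TPM for Ciita. The β chain H2-Eb2 and the α chain H2-Oa of the DM inhibitor H2-O were close to the limit of detection. H2-Eb2 had 3, 1 and 14 counts in PKM2FL/FL and 2, 4 and 4 in PKM2ΔMAC, and H2-Oa had 10, 5 and 8 and then 12, 7 and 0. Both failed the filter on low counts and were not tested. The count of 0 in PKM2ΔMAC mouse 3 allows up to 0.0604 CPM of H2-Oa by counting error alone. H2-Ob, the partner chain of H2-Oa, was also low, at 0.643 TPM, although its promoter held the same pair of cores as H2-Aa and H2-Eb1.

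**Figure D1:**
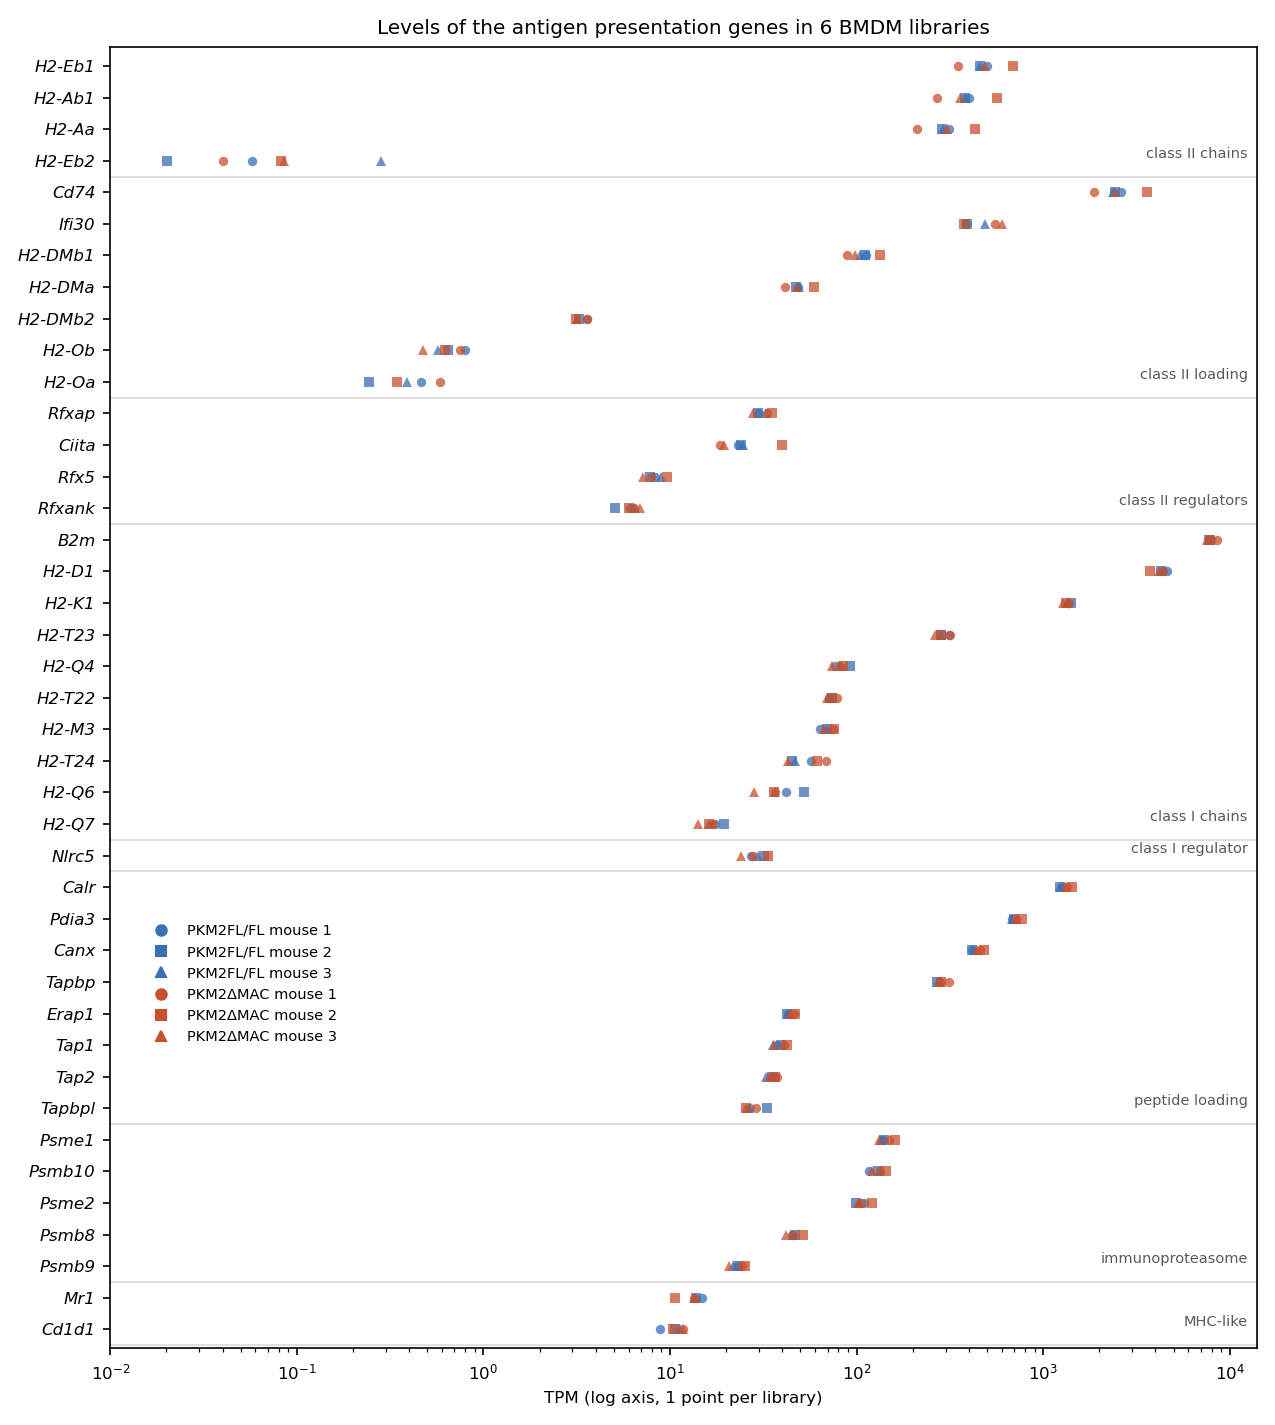
TPM of each of the 41 genes in each of the 6 libraries on a log axis, grouped by role, with PKM2FL/FL in blue, PKM2ΔMAC in red and 1 symbol per mouse. The blue and red points lie together for most genes, B2m and H2-D1 are highest, and the class II chains, Cd74 and Ciita spread widely in red, with PKM2ΔMAC mouse 1 to the left and mouse 2 to the right. H2-Oa of PKM2ΔMAC mouse 3 is 0 and is not drawn.

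The question of whether loss of macrophage PKM2 went with a different level of antigen presentation genes was put to edgeR's quasi-likelihood test over all 16516 genes that passed the filter. Of the 39 members tested, 0 were called at a Benjamini-Hochberg adjusted p under 0.05, where 0.412% of all genes tested were called. DESeq2 also called 0 of the 41, where it called 1.54% of genes. At an unadjusted p under 0.05, edgeR gave 3 members (H2-K1, H2-Q6 and H2-Q7, each lower in PKM2ΔMAC), 3 of 39 against 9.83% of all genes tested in either direction and 4.6% in the lower one. DESeq2 gave 4 of 41 (the same 3 and H2-D1, each lower), where 7.15% of genes had such a p in either direction. With single libraries left out, edgeR's count of members ran from 1 to 6, and with the replicate number as a block it was 7. Those fits have no share over all genes here, so their counts are not read further. The libraries of the genotypes did not overlap in CPM for 7 of the 39 members, against 17.2% of all genes. In 4 of these 7 (H2-K1, H2-D1, H2-Q6 and Mr1) every PKM2ΔMAC library lay below every PKM2FL/FL library, against 8.32% of all genes, and in Calr, Canx and Pdia3 every one lay above. Read against those shares, these counts are no result about the members. In TPM the genotypes overlapped for H2-K1, H2-D1, H2-Q6 and Mr1 and stayed apart for Calr, Canx and Pdia3. TPM carry no TMM correction, and on the log2(TPM + 1) scale 10559 of 14582 genes were above 0. TPM are therefore no independent check on CPM, here or for the single genes below. The median log2 fold change of the 39 members was -0.022, beside -0.00021 over all genes tested, with 17 members above 0 and 22 below. On the log2(TPM + 1) scale 25 members were above 0 and 13 below, with a median of 0.041 beside 0.063 over all genes. Without PKM2ΔMAC mouse 2 the edgeR median was -0.060, with 11 members above 0 and 28 below, and without mouse 3 it was 0.0045. Fold changes ran from -0.44 for H2-Q6 to 0.21 for Ifi30. In bulk RNA, fewer cells of a type and less RNA per cell cannot be told apart.

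**Figure D2:**
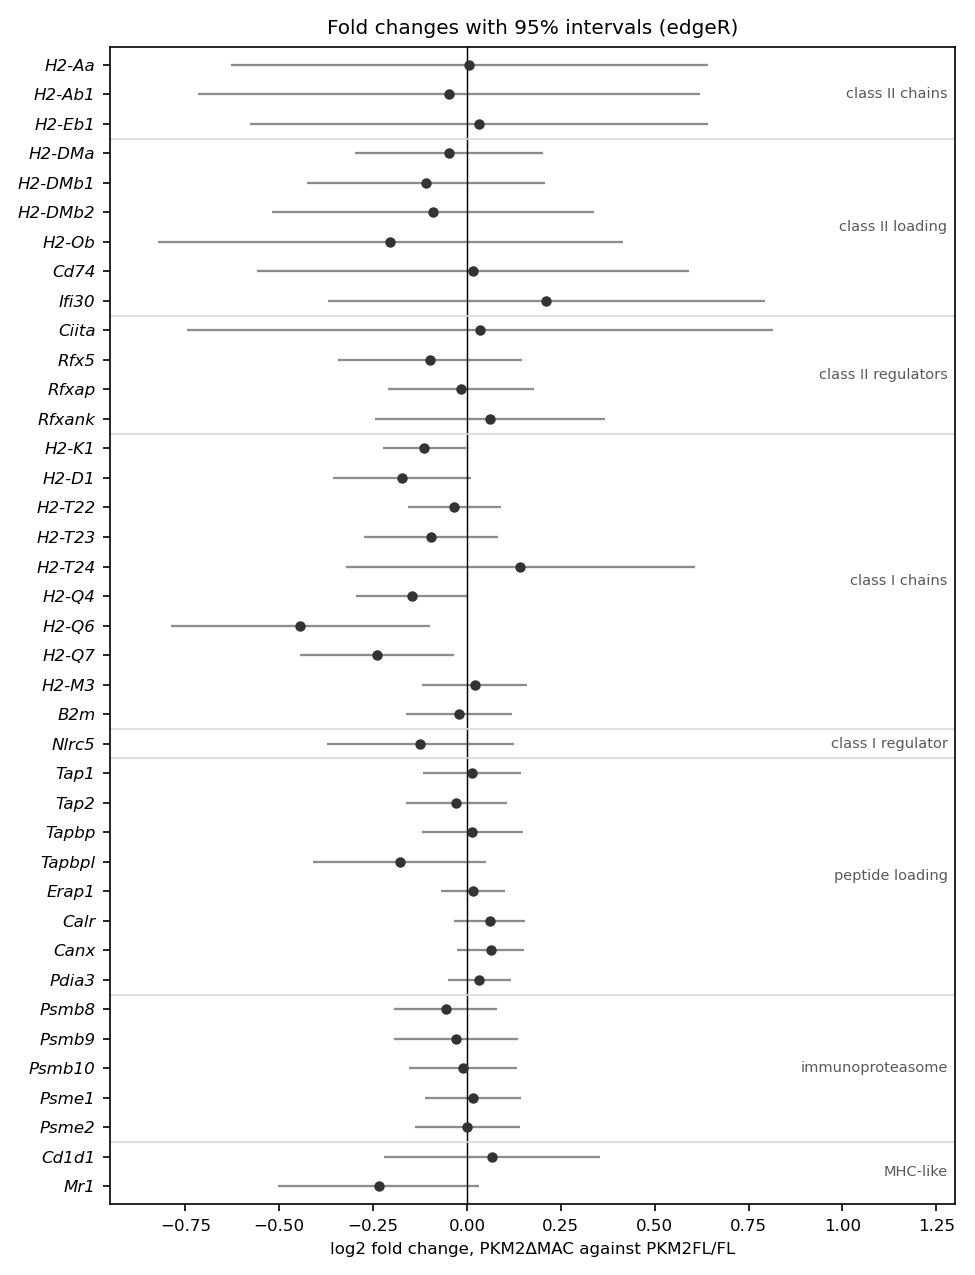
Log2 fold change of PKM2ΔMAC against PKM2FL/FL for the 39 tested genes, with bars for the 95% interval from edgeR's fit (3 mice per genotype). The intervals of 36 genes reach 0 and those of H2-K1, H2-Q6 and H2-Q7 lie below 0 before adjustment, while the class II chains and Ciita have the widest intervals among the abundant genes.

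The class II chains had close means in the 2 genotypes and a wider spread between mice in PKM2ΔMAC. H2-Aa, the α chain of the I-A molecule, had 343, 306 and 315 CPM in PKM2FL/FL mice 1 to 3 and 220.2, 427 and 322 CPM in PKM2ΔMAC mice 1 to 3. H2-Ab1, its β chain, had 298, 278 and 279 CPM in the same order in PKM2FL/FL and 191, 381 and 255 CPM in PKM2ΔMAC. H2-Eb1, the β chain of the I-E molecule, had 279, 253 and 255 and 187, 353 and 265 CPM. For all 3 genes PKM2ΔMAC mouse 1 was the lowest and mouse 2 the highest of the 6 libraries, so that the genotypes overlapped, and the 3 PKM2FL/FL mice lay between them. The highest PKM2ΔMAC library exceeded the lowest 1.94-fold for H2-Aa, 1.99-fold for H2-Ab1 and 1.89-fold for H2-Eb1, against 1.12-fold, 1.07-fold and 1.11-fold among PKM2FL/FL mice. The fitted log2 fold changes were 0.0066 for H2-Aa (95% interval from -0.63 to 0.64), -0.048 for H2-Ab1 (from -0.72 to 0.62) and 0.032 for H2-Eb1 (from -0.58 to 0.64). As folds, the intervals span 0.647 to 1.56 for H2-Aa, 0.609 to 1.54 for H2-Ab1 and 0.669 to 1.56 for H2-Eb1, so that differences of that size were not detectable with this spread. The smallest adjusted p of the 3 was 0.974.

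The proportions between the chains were close to constant while their levels moved. The TPM ratio of H2-Aa to H2-Ab1 was between 0.746 and 0.853 over the 6 libraries and that of H2-Eb1 to H2-Ab1 between 1.203 and 1.371. Cd74 stood at 2.10 to 2.26 times the summed TPM of the class II chains in every library. H2-Ea, the α chain of I-E, had between 0 and 0.187 CPM in these libraries, and mice of the H-2b haplotype, such as C57BL/6, are known to lack it.

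Of the class II loading genes, Cd74 followed the chains, with 1259, 1142 and 1142 CPM in PKM2FL/FL mice 1 to 3 and 868, 1585 and 1127 CPM in PKM2ΔMAC mice 1 to 3 (log2 fold change 0.015, SE 0.23, adjusted p = 0.991). H2-DMa and H2-DMb1 encode H2-DM, the exchange factor that removes the invariant chain peptide. H2-DMa had 48.4, 46.1 and 48.5 CPM in PKM2FL/FL and 39.1, 53.5 and 45.7 CPM in PKM2ΔMAC, and H2-DMb1 had 54.2, 52.7 and 50.3 and 41.05, 59.0 and 45.7 CPM. Both again had their lowest value in PKM2ΔMAC mouse 1 and their highest in mouse 2, over a smaller range than the chains (1.37-fold and 1.44-fold). Ifi30, the lysosomal thiol reductase GILT, ran the other way, with 109, 108 and 137 CPM in PKM2FL/FL mice 1 to 3 and 149.9, 96.8 and 163 CPM in PKM2ΔMAC mice 1 to 3. PKM2ΔMAC mouse 2 was its lowest library (log2 fold change 0.21, SE 0.23, adjusted p = 0.828, and 0.41 with an adjusted p of 0.327 without that library). H2-DMb2 and H2-Ob had at most 1.82 and 1.24 CPM and did not show this order of mice. Reads can be shared between H2-DMb1 and H2-DMb2, since 11.3% of the 100-base stretches of H2-DMb1 transcripts and 22.7% of the 50-base stretches are also in H2-DMb2, so their separate values are uncertain.

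Ciita (chr16:10480059-10528418 in GENCODE M21 on GRCm38) had 63.4, 64.2 and 67.1 CPM in PKM2FL/FL mice 1 to 3 and 48.9, 99.0 and 51.4 CPM in PKM2ΔMAC mice 1 to 3. Its 3 PKM2FL/FL values were within 1.06-fold of each other, PKM2ΔMAC mice 1 and 3 lay below all of them and mouse 2 above all of them. Between the genotypes it differed by 0.034 on the log2 scale (SE 0.30, 95% interval from -0.75 to 0.82, adjusted p = 0.984). The SD of log2(CPM + 0.1) was 0.043 in PKM2FL/FL and 0.57 in PKM2ΔMAC, and 7.44% of all genes tested had an SD at least as large in PKM2ΔMAC. Corresponding SDs were 0.085 and 0.48 for H2-Aa and 0.081 and 0.44 for Cd74, which 11.2% and 13.4% of genes reached in PKM2ΔMAC. The SD was larger in PKM2ΔMAC for 30 of the 39 members (76.9%) and for 63.5% of all genes tested, with median SDs of 0.132 and 0.080 for the members and 0.130 and 0.093 for all genes in PKM2ΔMAC and PKM2FL/FL. Without PKM2ΔMAC mouse 2, the SD of the other two PKM2ΔMAC libraries was 0.05 for Ciita, 0.39 for H2-Aa and 0.27 for Cd74, so that the wide spread of Ciita rested on this library and that of H2-Aa and Cd74 only in part (computed after the values were seen). The SD of the PKM2ΔMAC libraries was then larger than that of PKM2FL/FL for 27 of the 39 members (69.2%) and for 43.4% of all genes tested. The RFX subunits that bind the X box varied less than Ciita in PKM2ΔMAC, with SDs of 0.18 for Rfx5, 0.14 for Rfxap and 0.14 for Rfxank, and more than Ciita in PKM2FL/FL, with 0.10, 0.085 and 0.20. Rfx5 had 13.2, 12.1 and 14.0 and 11.9, 14.0 and 10.9 CPM in the 2 genotypes, Rfxap 19.2, 18.8 and 21.0 and 20.4, 20.6 and 17.3 CPM, and Rfxank 7.00, 5.66 and 7.36 and 6.99, 6.26 and 7.66 CPM, with overlapping genotypes for all 3 and adjusted p of at least 0.825.

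**Figure D3:**
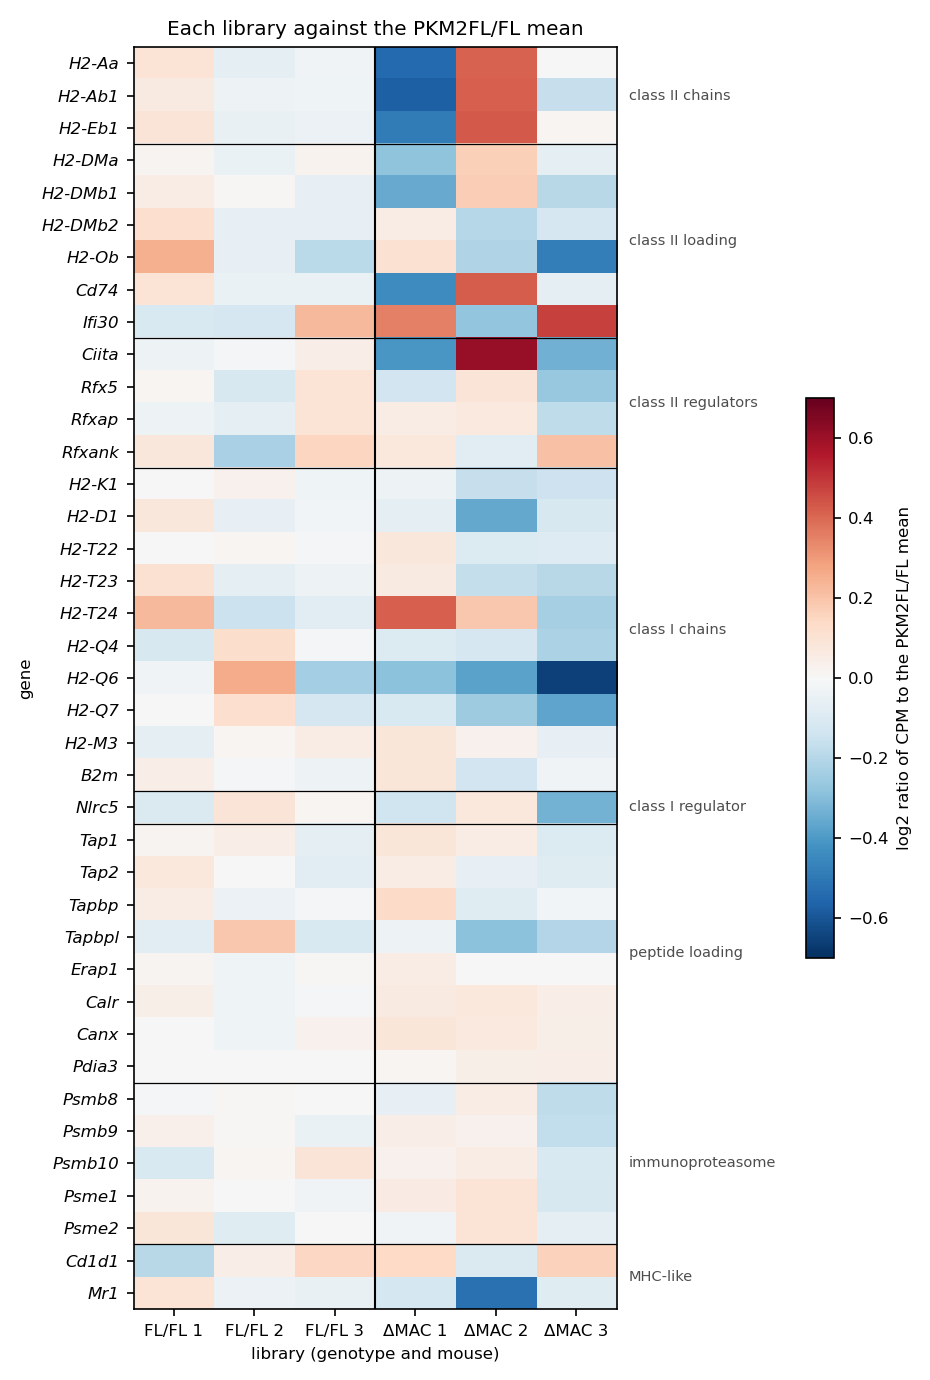
Log2 ratio of each library's CPM to the PKM2FL/FL mean for the 39 tested genes, grouped by role, with red for higher and blue for lower values. The class II chains, Cd74, H2-DMa, H2-DMb1 and Ciita are blue in PKM2ΔMAC mouse 1 and red in mouse 2, while the peptide loading genes other than Tapbpl are pale in all 6 libraries.

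Class II genes were called only in the fit that left out the library of PKM2ΔMAC mouse 2. Without it edgeR called 2 members, Ciita and H2-DMb1, where 1.77% of all genes tested were called. Ciita then stood at -0.37 on the log2 scale (SE 0.048, adjusted p = 0.00254) and H2-DMb1 at -0.27 (SE 0.058, adjusted p = 0.0384). Over all alternatives the adjusted p from 0.00254 to 1.00 for Ciita and from 0.0384 to 0.998 for H2-DMb1 was under 0.05 only with this library left out. H2-Aa, H2-Ab1, H2-Eb1 and Cd74 stood at -0.25, -0.35, -0.22 and -0.24 without it, with adjusted p of at least 0.429. With PKM2ΔMAC mouse 1 left out in its place, the same 4 genes stood at 0.22, 0.16, 0.24 and 0.20 and Ciita at 0.21, and 0 members were called.

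**Figure D4:**
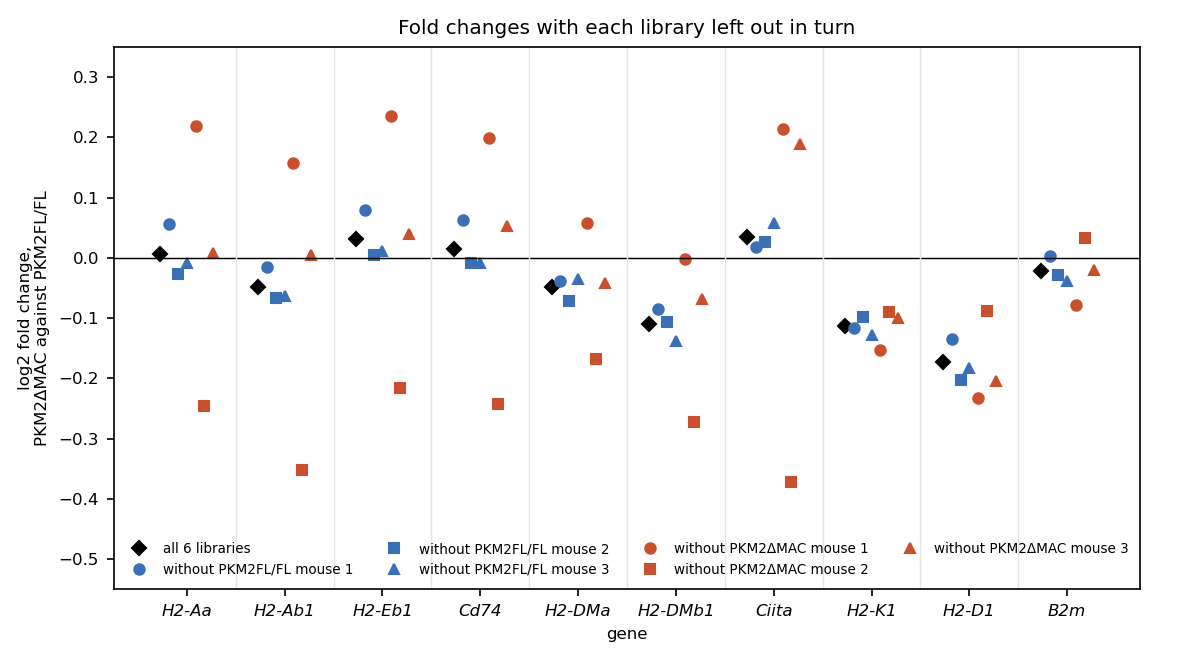
Log2 fold change of PKM2ΔMAC against PKM2FL/FL for 10 genes with all 6 libraries (black diamonds) and with each library left out in turn, blue for a PKM2FL/FL and red for a PKM2ΔMAC mouse. Leaving out PKM2ΔMAC mouse 2 (red squares) puts the class II genes and Ciita below 0 and leaving out mouse 1 (red circles) puts the class II chains, Cd74, H2-DMa and Ciita above 0, while H2-K1 and H2-D1 stay below 0 in every fit.

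Class I chains varied less between mice than class II chains in PKM2ΔMAC, with median SDs of 0.12 and 0.48, but not in PKM2FL/FL, with 0.081 and 0.08. None of the 10 was called, and 8 of their fold changes were below 0, with a median of -0.10. On the log2(TPM + 1) scale, where the median over all genes is 0.063 higher, 6 of 10 were below 0. Without PKM2ΔMAC mouse 1 all 10 were below 0 in edgeR's fit, with a median of -0.16. Without PKM2ΔMAC mouse 2 the number below 0 was 7, with a median of -0.074. H2-K1, a classical class I chain, had 1145, 1172 and 1126 CPM in PKM2FL/FL mice 1 to 3 and 1118, 1026 and 1038 CPM in PKM2ΔMAC mice 1 to 3. In CPM every PKM2ΔMAC library lay below every PKM2FL/FL library, by -0.11 on the log2 scale (SE 0.048, unadjusted p = 0.0443, adjusted p = 0.491 from edgeR). In TPM the genotypes overlapped, with 1380 TPM in PKM2ΔMAC mouse 1 and 1336 TPM in PKM2FL/FL mouse 3. H2-D1, the other classical chain of this set, had 3413, 3107 and 3196 CPM and 3102, 2524 and 2988 CPM (log2 fold change -0.17, SE 0.08, adjusted p = 0.532, and -0.088 without PKM2ΔMAC mouse 2). In CPM its PKM2ΔMAC libraries were also all below those of PKM2FL/FL, by the least for mouse 1. In TPM its genotypes overlapped too, with 4364 TPM in PKM2ΔMAC mouse 1 and 4274 TPM in PKM2FL/FL mouse 2. The exact two-sided permutation test in CPM gave p = 0.10 for both H2-K1 and H2-D1, the smallest it can give with 3 mice per genotype.

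The nonclassical chain H2-Q6 had the lowest fold change and the smallest p of the 39 members, with 25.3, 30.8 and 21.8 CPM in PKM2FL/FL mice 1 to 3 and 21.1, 19.8 and 16.3 CPM in PKM2ΔMAC mice 1 to 3. The genotypes did not overlap in CPM, but the highest PKM2ΔMAC value, 21.1 CPM, was close to the lowest PKM2FL/FL value, 21.8 CPM (log2 fold change -0.44, SE 0.15, adjusted p = 0.397). In TPM they overlapped, with 36.7 TPM in PKM2ΔMAC mouse 1 and 36.4 TPM in PKM2FL/FL mouse 3. The adjusted p of H2-Q6 ran from 0.0915 to 0.725 over the alternatives. H2-Q7 (Qa-2) had 21.5, 23.4 and 19.9 and 20.1, 18.2 and 16.7 CPM with overlap (log2 fold change -0.24, SE 0.09, adjusted p = 0.428), and H2-Q4 had 57.5, 67.6 and 61.6 and 58.1, 57.2 and 53.3 CPM (log2 fold change -0.15, SE 0.065, adjusted p = 0.512). These genes are near-identical in parts, and 10.8% of the 100-base stretches of H2-Q6 transcripts and 12.0% of those of H2-Q7 also occur in another gene, so their separate values are uncertain. The same share was 8.86% for H2-T22, 3.59% for H2-D1 and 0.957% for H2-K1. For stretches of 50 bases it was larger, at 32.0% for H2-Q6, 26.4% for H2-Q7, 21.8% for H2-Q4, 34.5% for H2-T22, 12.8% for H2-D1 and 9.63% for H2-K1. The read length is not given in the sources used here.

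B2m, the light chain, had 1979, 1895 and 1871 CPM in PKM2FL/FL and 2034, 1745 and 1881 CPM in PKM2ΔMAC (log2 fold change -0.022, SE 0.062, adjusted p = 0.945, and a log2 fold change of 0.048 on the log2(TPM + 1) scale). The ratio of B2m to the summed TPM of the 9 class I heavy chains was 1.21, 1.24 and 1.21 in PKM2FL/FL and 1.34, 1.36 and 1.31 in PKM2ΔMAC, so that the genotypes did not overlap in this ratio, which was chosen after its values were seen. H2-T22, H2-T23 and H2-M3, which presents formylated peptides, had log2 fold changes of -0.033, -0.10 and 0.02, and H2-T24 of 0.14, all with overlapping genotypes and adjusted p of at least 0.757. Nlrc5, the class I coactivator, had 66.4, 75.9 and 72.0 CPM in PKM2FL/FL mice 1 to 3 and 64.8, 75.0 and 56.7 CPM in PKM2ΔMAC mice 1 to 3 (log2 fold change -0.12, SE 0.10, adjusted p = 0.770). PKM2ΔMAC mouse 3 was its lowest library and the genotypes overlapped.

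Peptide transport and loading genes were the steadiest of the groups, with a median SD of 0.042 and 0.052 on the log2 scale in PKM2FL/FL and PKM2ΔMAC. Tap1 and Tap2, which together form the TAP transporter, had log2 fold changes of 0.014 (95% interval from -0.12 to 0.14) and -0.028 (from -0.16 to 0.11). Tapbp (tapasin) was at 0.014 (from -0.12 to 0.15) and Erap1, which trims peptides in the endoplasmic reticulum, at 0.017 (from -0.068 to 0.10). The bound farthest from 0 in these 4 intervals was -0.16, for Tap2. Tapbpl, a relative of tapasin, had 18.2, 21.8 and 17.8 and 18.7, 15.7 and 16.6 CPM with overlap (log2 fold change -0.18, SE 0.10, adjusted p = 0.619). The chaperones Calr, Canx and Pdia3 were above all PKM2FL/FL values in every PKM2ΔMAC library, by small amounts. Calr had 1054, 1002 and 1019 CPM in PKM2FL/FL and 1069, 1078 and 1060.0 CPM in PKM2ΔMAC, a log2 fold change of 0.061. Canx had 564, 551 and 575 and 597, 590.1 and 579.6 CPM (0.064), and Pdia3 had 615, 617 and 614 and 622, 633 and 635 CPM (0.033). None of the 3 passed edgeR's test, with adjusted p between 0.654 and 0.829.

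Immunoproteasome subunits, which replace the constitutive catalytic subunits in cells exposed to IFN-γ, had fold changes between -0.057 and 0.015 on the log2 scale in CPM, and on the log2(TPM + 1) scale Psmb8, Psmb9 and Psmb10 turned to 0.012, 0.038 and 0.062. Psmb8 had 43.8, 44.5 and 44.2 and 42.4, 45.8 and 39.1 CPM, Psmb9 24.3, 23.9 and 22.97 and 24.5, 24.2 and 21.1 CPM, and Psmb10 57.3, 62.3 and 65.7 and 62.8, 63.9 and 57.1 CPM. PKM2ΔMAC mouse 3 was the lowest of the 6 libraries for all 3, and the genotypes overlapped. Psme1 and Psme2, subunits of the PA28 activator, also overlapped. Psme1 had 88.6, 87.2 and 85.8 CPM in PKM2FL/FL and 90.6, 93.1 and 80.6 CPM in PKM2ΔMAC (log2 fold change 0.015, SE 0.056, adjusted p = 0.959). Of the 100-base stretches of Psme2 transcripts, 18.4% also occur in Psme2b, as do 28.3% of those of 50 bases, so the value of Psme2 is uncertain.

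The ratio of each inducible subunit to the constitutive one it replaces was then taken in TPM. Psmb8 to Psmb5 was 0.317, 0.323 and 0.309 in PKM2FL/FL mice 1 to 3 and 0.372, 0.374 and 0.482 in PKM2ΔMAC mice 1 to 3, with means of 0.316 ± 0.007 and 0.410 ± 0.063 (SD, n = 3 each). Every PKM2ΔMAC library was above every PKM2FL/FL library. Psmb5 also separated the genotypes, with 36.7, 36.6 and 38.0 CPM in PKM2FL/FL and 30.3, 32.5 and 21.6 CPM in PKM2ΔMAC (log2 fold change -0.40, SE 0.15, adjusted p = 0.451), while Psmb8 overlapped. Psmb9 to Psmb6 was 0.152, 0.170 and 0.151 and 0.167, 0.182 and 0.138, and Psmb10 to Psmb7 was 3.26, 3.65 and 3.67 and 3.74, 3.41 and 3.57. Both of these ratios overlapped between the genotypes. Psmb10 was thus above its constitutive partner and Psmb8 and Psmb9 below theirs in all 6 libraries.

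Class II was set against class I by the ratio of summed TPM of the 4 class II chains to that of the 9 class I heavy chains. It was 0.184, 0.179 and 0.180 in PKM2FL/FL mice 1 to 3 and 0.129, 0.296 and 0.192 in PKM2ΔMAC mice 1 to 3, with means of 0.181 ± 0.003 and 0.206 ± 0.084 (SD, n = 3 each). The PKM2FL/FL libraries were nearly equal, and the PKM2ΔMAC libraries spanned 2.29-fold with the PKM2FL/FL values inside their range. Without PKM2ΔMAC mouse 2 the PKM2ΔMAC mean was 0.161, below that of PKM2FL/FL, and without mouse 1 it was 0.244. PKM2ΔMAC mouse 2 had the highest class II sum, 1688 TPM against 1126 to 1214 TPM in PKM2FL/FL, and also the lowest level of H2-D1.

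**Figure D5:**
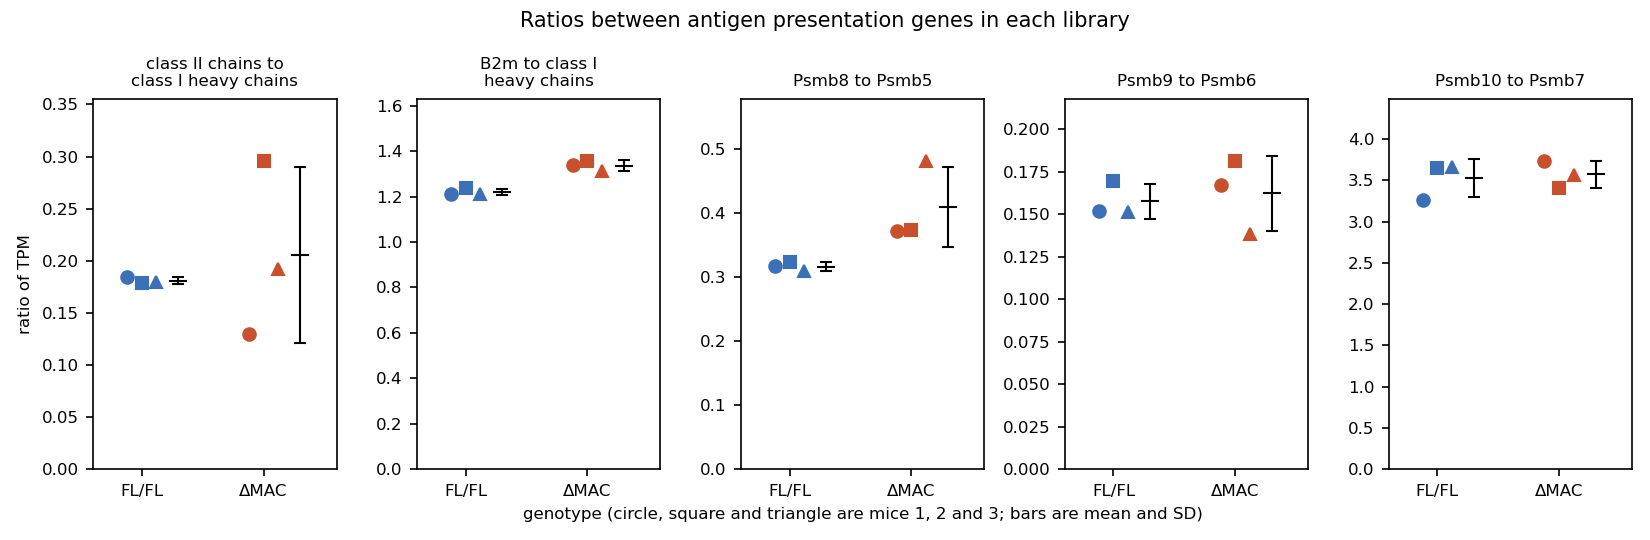
TPM ratios in each library for class II chains to class I heavy chains, B2m to class I heavy chains, and the 3 inducible proteasome subunits to their constitutive partners, with mean and SD of 3 mice per genotype and all axes from 0. The class II to class I ratio is tight in PKM2FL/FL and spread from 0.129 to 0.296 in PKM2ΔMAC, and the genotypes separate for B2m to class I and for Psmb8 to Psmb5.

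The MHC-like genes were low. Mr1, which presents vitamin B metabolites to MAIT cells, had 25.7, 23.4 and 23.2 CPM in PKM2FL/FL mice 1 to 3 and 22.1, 16.7 and 22.6 CPM in PKM2ΔMAC mice 1 to 3 (log2 fold change -0.24, SE 0.12, adjusted p = 0.557). In CPM all PKM2ΔMAC libraries lay below those of PKM2FL/FL, most of all mouse 2, without which the log2 fold change was -0.11 (adjusted p = 0.588). In TPM the genotypes overlapped, with 13.64 TPM in PKM2ΔMAC mouse 3 and 13.50 TPM in PKM2FL/FL mouse 3. Cd1d1, which presents lipids to NKT cells, had 6.54, 7.75 and 8.31 CPM in PKM2FL/FL and 8.27, 6.99 and 8.40 CPM in PKM2ΔMAC with overlapping genotypes (log2 fold change 0.067, SE 0.13, adjusted p = 0.912), and 10.5% of the 100-base and 19.1% of the 50-base stretches of its transcripts also occur in Cd1d2.

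Of 60 further genes of the pathway, which include proteases, other MHC chains, proteasome subunits and IFN-γ signalling genes, 54 were tested and 0 were called by edgeR, with 6 at an unadjusted p under 0.05, 5 of them lower, beside 9.83% of all genes in either direction and 4.6% lower. Ctss, the protease that degrades the invariant chain, had the highest mean level of these genes, 10021 TPM, with 4209, 3296 and 4028 CPM in PKM2FL/FL and 4263, 2788 and 4223 CPM in PKM2ΔMAC. Ctsb, another lysosomal cathepsin, had a mean of 7487 TPM, with 13846, 12421 and 13132 and 13546, 9112 and 13890.4 CPM. For both cathepsins PKM2ΔMAC mouse 2 was the lowest library, as for Ifi30 and opposite to the class II chains. Ifngr1, the ligand-binding chain of the IFN-γ receptor, had the smallest adjusted p of the 54, with 227, 239 and 244 CPM in PKM2FL/FL mice 1 to 3 and 199.7, 169.9 and 168 CPM in PKM2ΔMAC mice 1 to 3 (log2 fold change -0.40, SE 0.07, adjusted p = 0.0715). All PKM2ΔMAC libraries lay below those of PKM2FL/FL. Irf8, a myeloid transcription factor, had 234, 238 and 243 and 216, 203 and 219 CPM, again without overlap (log2 fold change -0.17, SE 0.043, adjusted p = 0.232), while Irf1 overlapped, with an adjusted p of 0.970. Ifngr1, Irf8, Ctss and Psmb5 were named after their values were seen.

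Markers of other cells that hold class II molecules were set beside the class II values. Of 8 dendritic cell markers, Flt3, Xcr1, Clec9a, Cd209a, Siglech, Ccr7 and Zbtb46 together had between 4.57 and 5.01 CPM in each library, and only Itgax, which macrophages also express, was abundant, with 281, 154 and 259.7 CPM in PKM2FL/FL and 314, 115 and 361 CPM in PKM2ΔMAC. Its lowest library was PKM2ΔMAC mouse 2, where class II was highest. Of the B cell markers, Cd79a, Cd79b, Ms4a1 and Pax5 together had at most 2.15 CPM, and Ebf1, which stromal cells also express, between 37.9 and 53.1 CPM. Pax5 was at 0 in PKM2ΔMAC mouse 1. In TPM the 7 dendritic cell markers summed to 4.10, 4.37 and 4.56 in PKM2FL/FL and 4.37, 5.17 and 3.94 in PKM2ΔMAC, and the 4 B cell markers to 3.00, 4.03 and 3.25 and 5.07, 4.77 and 4.38. PKM2ΔMAC mouse 2 was thus the highest library for the dendritic cell sum in TPM but not in CPM. Cd209a, Ccr7 and Ebf1 were each highest in that library in CPM, with 0.656, 0.619 and 53.1 CPM, of which Cd209a and Ccr7 rested on 36 and 34 counts. Clec9a was lowest there, at 0.328 CPM. Flt3, Xcr1, Siglech, Zbtb46 and the B cell markers other than Ebf1 were not highest there. The part of RNA of these cells in the class II values was not tested. All 8 neutrophil markers had a fold change above 0, with summed levels of 20.3, 34.9 and 48.8 CPM in PKM2FL/FL and 122, 90.1 and 170.0 CPM in PKM2ΔMAC, and 0 of 8 were called. At an unadjusted p under 0.05, edgeR gave 5 of the 8, against 9.83% of all genes. In 5 of the 8 every PKM2ΔMAC library lay above every PKM2FL/FL library, as in 1474 of the 16516 genes tested. The 5 stromal markers summed to 5453, 5632 and 5047 CPM in PKM2FL/FL and 6349, 5059.6 and 6316 CPM in PKM2ΔMAC. Of these, 4 of 5 had a fold change above 0 and 0 were called. An unadjusted p under 0.05 from edgeR was found for 2 of 5, against 9.83% of all genes. Pdgfrb was higher in every PKM2ΔMAC library (log2 fold change 0.22, SE 0.039, adjusted p = 0.0719). The part of neutrophil or stromal RNA in the values of the MHC genes was not tested.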

How the data were processed

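RNA-seq of 6 BMDM cultures (3 PKM2FL/FL, 3 PKM2ΔMAC, 1 library per mouse) was analysed from the deposited raw counts per gene and the TPM values that the authors made from the same libraries. The submitters' processing notes name FastQC 0.12.1, Trim Galore 0.6.10, HISAT2 2.2.1, SAMtools 1.19.2, Subread 2.0.6 and the mm10 build. Strand and multimapping settings of the counting are not given in the sources used here. Columns were matched to mice by the genotype and number in their names, and 0 were left unmatched.

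Genes were kept by filterByExpr on genotype and tested with edgeR 4.0.16 (R 4.3.3, TMM, robust quasi-likelihood fit, genotype as the only term, Benjamini-Hochberg adjustment over all 16516 genes, adjusted p under 0.05). CPM were scaled by TMM. Single genes were also compared by an exact two-sided permutation test of log2(CPM + 0.1), whose smallest p is 0.10. Levels of different genes were compared in TPM only. Floors of 3 counts cover counting error only. With totals of at least 49957449 counts, the spread between mice and not depth sets the precision for all but the lowest genes.

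The members and gene lists were chosen with earlier results of these data known. Values in each library are given for the 2 members of each role with the highest TPM and the 2 with the smallest p, and H2-Aa, H2-K1, H2-Q4, H2-DMa and the untested genes were added after their values were seen. Some genes of these lists are not reported here singly. Gene positions came from GENCODE M21 on GRCm38 and promoters from RefSeq on GRCm38.p6. Shared stretches of 100 and 50 bases were counted between annotated transcripts. The tests were tried on simulated data. Alternatives were DESeq2 1.42.0, other normalizations and filters, the replicate number as a block, limma 3.58.1 on log2 TPM with a pseudocount of 1 or 0.1, and leaving out each library.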

Additional observations from a re-analysis of the deposited data

How the results depend on the processing

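No member was called under any alternative with edgeR, DESeq2 or limma, except Ciita and H2-DMb1 without PKM2ΔMAC mouse 2, so that between 0 and 2 members were called when single libraries were left out. Genes called over all genes numbered 289 with DESeq2, 120 without a filter, 41, 34 and 36 with limma on log2(TPM + 1), on log2(TPM + 0.1) and without a filter, and from 22 to 299 with single libraries left out. The replicate block gave 82 genes and 0 members. Deviations of same-numbered mice correlated at 0.080, 0.14 and 0.019. Other pairs ran from -0.12 to 0.067, the highest being PKM2ΔMAC mouse 3 with PKM2FL/FL mouse 1. Each PKM2FL/FL mouse correlated most with the PKM2ΔMAC mouse of its own number. Correlations this small, from 3 mice per genotype, cannot decide whether the numbers pair the mice. Under the block the log2 fold changes of H2-Aa, H2-Eb1, Cd74 and Ciita turned to -0.042, -0.013, -0.027 and -0.041. Psme2, close to 0 in the reported fit, turned to -0.00062 with DESeq2 and -0.00091 without a filter. On log2(TPM + 1), with or without a filter, and on log2(TPM + 0.1), Rfxap turned to 0.051 and 0.053, B2m to 0.048, Psmb8 to 0.012, Psmb9 to 0.038 and 0.040, H2-DMa to 0.013, H2-T22 to 0.036 and 0.037, Tap2 to 0.043 and 0.044, and Psmb10 to 0.062. The median over all genes was also higher on the TPM scale, by 0.063. TPM summed to between 999626 and 999691 in every library, and Lyz2 took a mean of 47420 TPM in PKM2FL/FL and 79.4 TPM in PKM2ΔMAC. How much of these shifts goes with the missing Lyz2 TPM was not tested. With single libraries left out, fold changes ran from -0.25 to 0.22 for H2-Aa, from -0.35 to 0.16 for H2-Ab1, from -0.22 to 0.24 for H2-Eb1, from -0.17 to 0.057 for H2-DMa, from -0.27 to -0.0018 for H2-DMb1, from -0.24 to 0.20 for Cd74, from -0.37 to 0.21 for Ciita, from -0.060 to 0.058 for Rfxap, from -0.044 to 0.14 for Rfxank, from -0.013 to 0.057 for H2-M3, from -0.014 to 0.30 for H2-T24, from -0.079 to 0.033 for B2m, from -0.021 to 0.064 for Tap1, from -0.070 to 0.0084 for Tap2, from -0.050 to 0.061 for Tapbp, from -0.0012 to 0.028 for Erap1, from -0.068 to 0.036 for Psmb9, from -0.062 to 0.037 for Psmb10, from -0.025 to 0.075 for Psme1, from -0.048 to 0.045 for Psme2 and from -0.026 to 0.15 for Cd1d1. With counts per transcript length in place of TPM, the class II to class I ratio was 0.210 in PKM2FL/FL and 0.237 in PKM2ΔMAC, and the ratios were 0.561 and 0.726 for Psmb8 to Psmb5, 0.103 and 0.106 for Psmb9 to Psmb6 and 3.82 and 3.87 for Psmb10 to Psmb7 in PKM2FL/FL and PKM2ΔMAC. Over H2-K1 and H2-D1 alone the class II to class I ratio was 0.201 and 0.2297 in the same order, and the difference of mean log2(TPM + 1) that replaced the ratio was -0.73 and -0.68. Depth limits only H2-Eb2, H2-Oa, H2-Ob and H2-DMb2. With 3 mice per genotype, intervals were wide for the class II chains, Cd74 and Ciita, which varied more between mice in PKM2ΔMAC than in PKM2FL/FL.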
